A study of Mus musculus with 25 samples.

Results

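The genes described here encode the nuclear-encoded subunits of the 5 oxidative phosphorylation complexes, measured in 25 mouse melanomas. They were taken as the rows of the count table whose symbol is Ndufa, Ndufb, Ndufc, Ndufs or Ndufv followed by a digit, Ndufab1, or Sdha to Sdhd, or starts with Uqcr, with Cox4 to Cox8 or with Atp5. Rows with "-ps" in the symbol were left out, which removed 9. The rule found 90 of 55450 rows: 41 for complex I, 4 for complex II, 8 for complex III, 19 for complex IV and 18 for complex V. Of these, 86 were protein-coding and 4 were processed pseudogenes (Ndufa11b, Ndufb4c, Ndufs6b and Cox6c2). A filter on low counts left 83 protein-coding members for testing. Cox7b2, Cox8c and a second identifier of Atp5o had no counts in any tumour and were not tested.

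The tumours grew from B2905, a melanoma line also called M4, in C57BL/6 mice, and each gave 1 bulk RNA library. Antibodies were given at 10 mg/kg once tumours averaged 75 mm3. Controls (n = 5) received an isotype IgG2b antibody. The other 20 tumours came from an arm of 30 mice treated with anti-CTLA-4, which blocks an inhibitory receptor of T cells. By their course 10 to 11 days after the last dose, 8 were responders that shrank. Another 6 were stable tumours that kept their size, and 6 were non-responders that grew. These numbers need not be the outcome of the whole arm. All tumours came from 1 cell line, and 5 further mice without antibody are not analysed here. Outcome was assigned after treatment, and the library numbers in the labels run in blocks by group, so processing order and group cannot be told apart. In bulk tissue, fewer cells of a type and less RNA per cell cannot be told apart.

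Oxidative phosphorylation makes most of the ATP of respiring cells. Complex I passes electrons from NADH, and complex II from succinate, to coenzyme Q; complex III passes them on to cytochrome c, and complex IV to oxygen. Complexes I, III and IV pump protons across the inner mitochondrial membrane, and complex V, the ATP synthase, uses that gradient to make ATP. Most subunits are encoded in the nucleus and imported, while mitochondrial DNA encodes a small core of complexes I, III, IV and V and no part of complex II. In melanocytic cells, the coactivator Ppargc1a (PGC-1 alpha), a target of the melanocyte factor Mitf, is known to raise the transcription of these genes.

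Subunit transcripts were most abundant in controls, lower for non-responders, lower again for stable tumours and lowest for responders. For the 83 tested members, the median ratio of a group's mean to the control mean was 70.8% for non-responders, 57.2% for stable tumours and 39.2% for responders. In responders, 70 of the 83 members had a mean under 50% of the control mean, against 19 in stable tumours and 2 in non-responders. The matching shares of all tested genes are not given here. These ratios are of CPM, a count scaled to the protein-coding library after TMM normalisation. Protein-coding counts were used as the base since their share of all counts differed between libraries.

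Libraries held between 8764580 and 34311295 counts. Protein-coding genes took 82.9% to 89.2% of counts in the 17 control, non-responder and stable libraries and 87.0% in responder 5, but 23.8% to 74.3% in the other 7 responders. The share of protein-coding counts taken by members had a median of 1.18% in the control group. It was 0.803% for tumours that grew, 0.628% for stable ones and 0.399% for responders. Mitochondrial ribosomal RNA took a median of 0.938%, 0.942%, 2.13% and 4.36% of counts in the same order, and its part in the results was not tested.

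The mean log2 CPM over the subunits of a complex gave the same order of group means in each of the 5 complexes. For complex I the score was 6.07 ± 0.14 in controls (SD, n = 5), 5.55 ± 0.38 for non-responders (SD, n = 6), 5.31 ± 0.12 for stable tumours (SD, n = 6) and 4.73 ± 0.39 for responders (SD, n = 8). For complex V it was 7.31 ± 0.14, 6.74 ± 0.42, 6.46 ± 0.15 and 5.79 ± 0.44 in the same order. For the 83 members together, all 6 stable tumours and all 8 responders lay below the lowest control, and 5 of 6 non-responders did. Of the responders, 7 of 8 lay below the lowest stable tumour and the lowest non-responder. Stable tumours and non-responders overlapped.

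**Figure D1:**
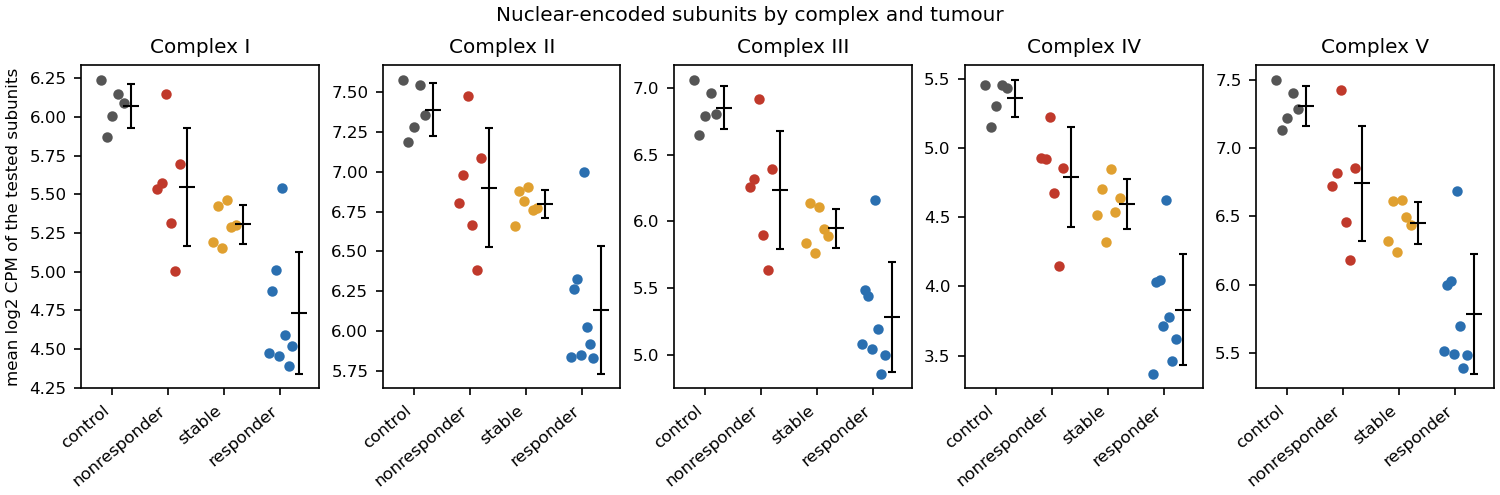
Mean log2 CPM of the tested subunits of each complex (y axis) in each of 25 tumours (points) by group (x axis), with the group mean and SD as bars. Most responders lie lowest in each panel, responder 5 lies with the stable tumours or above, and non-responder 3 lies at or near the control range.

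Single tumours departed from their group across complexes. Non-responder 3 had a score of 6.37 over all members, inside the control range of 6.13 to 6.49, while the other 5 non-responders lay between 5.21 and 5.90. Responder 5 had a score of 5.73, above the 6 stable tumours (5.36 to 5.72), while the other 7 responders lay between 4.54 and 5.14. By member, responder 5 fell below the lowest non-responder for 2 of 83 genes, whereas the other responders did so for 57 to 80. The matching shares of all tested genes are not given for single tumours, so these counts are not particular to the members. Responder 5 is also the responder library with the protein-coding share of the other groups. Non-responder 3 had a share of 87.8%. The part of library composition in these departures was not tested.

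**Figure D2:**
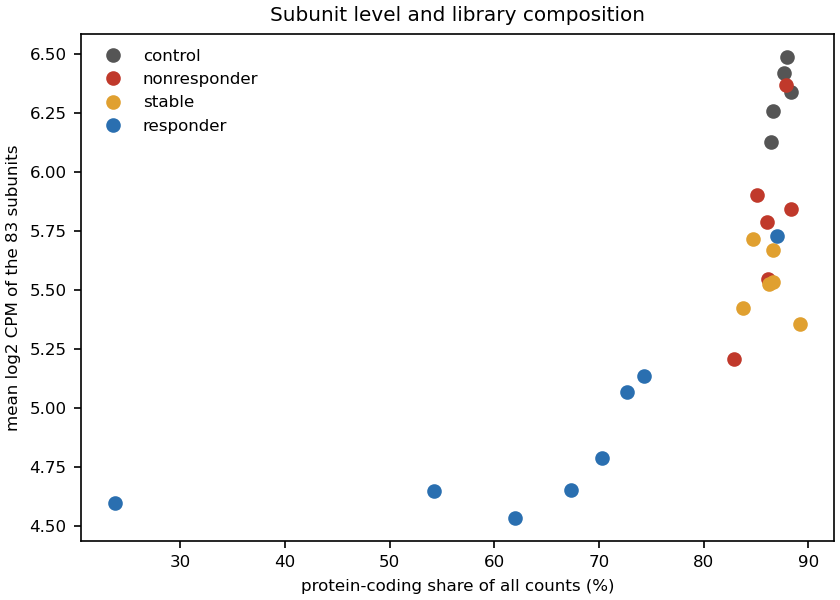
Mean log2 CPM of the 83 tested members (y axis) against the protein-coding share of all counts (x axis, percent) for each of 25 tumours. The 7 responders under 80% lie at 4.54 to 5.14, and responder 5, at 87.0%, lies at 5.73.

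Levels were compared between genes on the authors' RPKM values, which are per gene length and cover 82 of the 90 members. The median over the members of a complex in controls was 49.8 RPKM for complex I, 63.4 for complex II, 94.3 for complex III, 134 for complex IV and 138 for complex V. In responders the same medians were 19.3, 29.1, 31.1, 44.3 and 46.5 RPKM, so the order of the complexes was kept. The most abundant member was Atp5b, the catalytic beta subunit of the synthase, at 566 ± 74.2 RPKM in controls (SD, n = 5) and 134 ± 45.8 in responders (SD, n = 8). In controls Ndufa4 (315 ± 51.1 RPKM) and Cox8a (303 ± 32.2 RPKM) came next and did not differ beyond their SD. In stable tumours Ndufa4 stood at 83.9 ± 19.0 RPKM and Cox8a at 176 ± 27.5 (SD, n = 6), a gap beyond both SDs. The least abundant listed members were the tissue-restricted isoforms Cox6b2 (0.384 RPKM over all tumours) and Cox4i2 (0.852 RPKM).

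Responders were compared with non-responders, which asks which subunits differed between tumours that shrank and tumours that grew under the same antibody. With edgeR's quasi-likelihood test and an adjusted p under 0.05, 78 of 83 members were lower in responders and 0 were higher. Of all 14881 protein-coding genes tested, 25.7% were lower and 22.2% higher. The median log2 fold change was -0.88 over the members and -0.01 over all tested genes. The calls covered 36 of 38 genes of complex I, 4 of 4 of complex II, 8 of 8 of complex III, 14 of 16 of complex IV and 16 of 17 of complex V. The 5 members not called were Ndufa4l2 (log2 fold change 0.48), Ndufv3 (-0.38), Cox6b2 (0.87), Cox7a2l (-0.42) and Atp5s (-0.04). Of the 83 members, 1 (Ndufa4) had every responder below every non-responder, against 3.11% of all tested genes.

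This comparison changed when library composition entered the fit. A low protein-coding share occurred in 7 responder libraries and in no other group. Share and response are therefore confounded, and the fits below cannot tell them apart. Once the protein-coding share entered the fit, 14 of 83 members stayed called lower, among them Ndufa4, Atp5b, Atp5g1, Atp5g3, Cox6a1 and Uqcr11, and the median was -0.55. In that fit 5.75% of all genes were called lower. Without the 7 responder libraries of low share, which leaves responder 5 alone, 0 members were called and the median was -0.04. The lone responder is there assumed to vary like the other groups, and edgeR called 0 genes of the whole table. At an unadjusted p under 0.05 that fit had 0 members and 2253 of all genes.

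**Figure D3:**
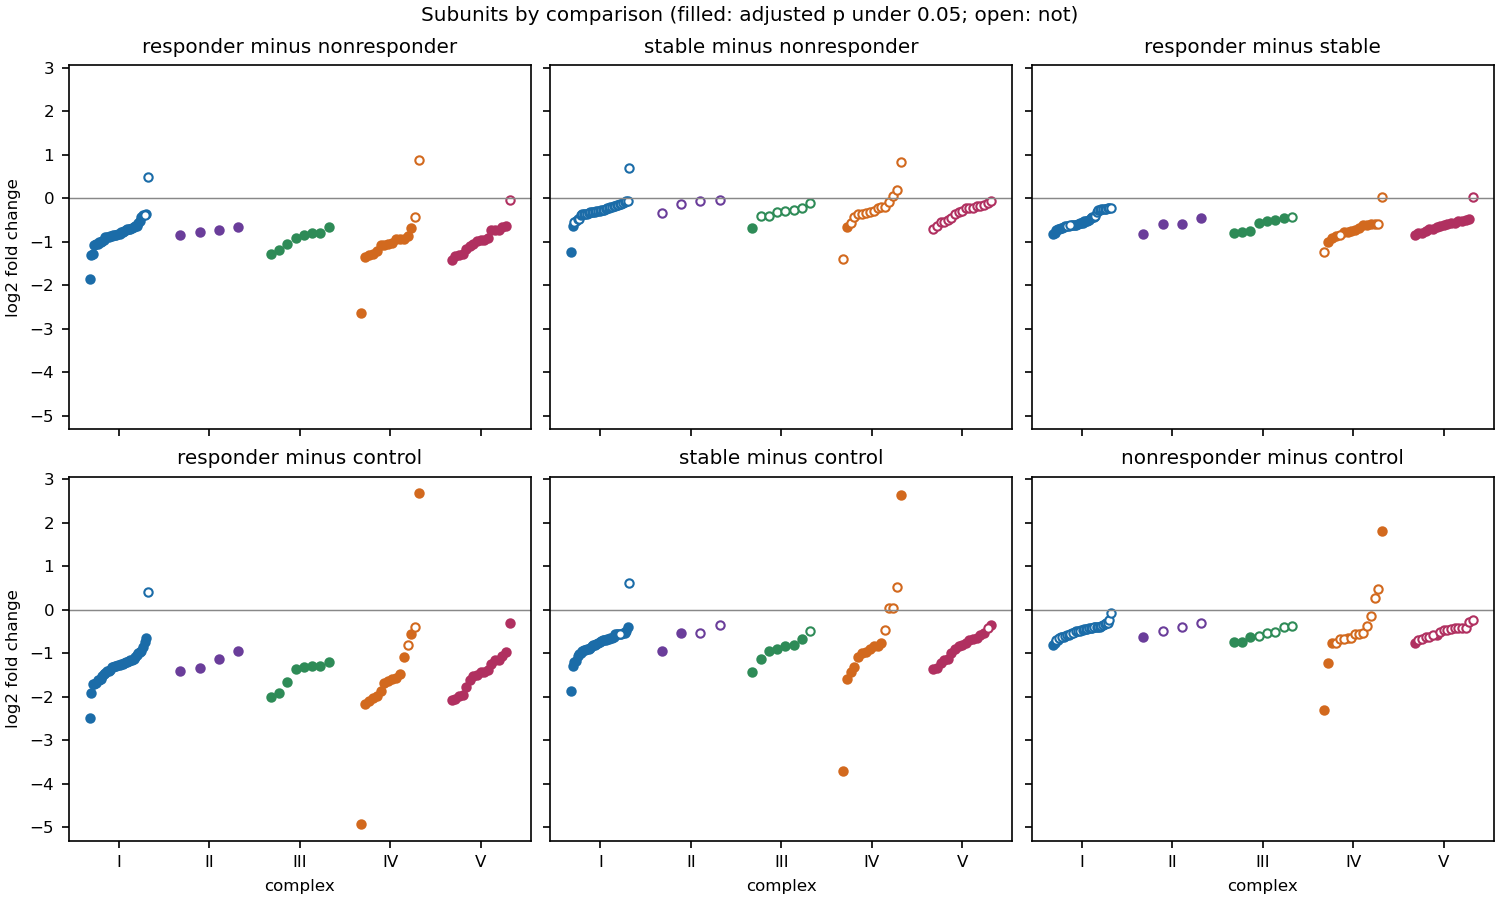
Log2 fold change (y axis) of each of the 83 tested members in the 6 comparisons, arranged by complex (x axis) and sorted within it; filled points had an adjusted p under 0.05. Most points lie below 0, and the 1 filled point above 0 in each comparison with controls is Cox6b2.

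Complex I, the NADH dehydrogenase, has catalytic core subunits that carry its flavin and iron-sulfur clusters and many accessory subunits. All 7 nuclear-encoded core subunits were called lower in responders than in non-responders, with log2 fold changes from -1.29 (Ndufs8) to -0.35 (Ndufs7). Of 29 accessory subunits, 28 were called lower, from -1.27 (Ndufa12) to the uncalled -0.38 (Ndufv3). Ndufb9, the accessory subunit with the highest RPKM, stood at 98.8 CPM in the median non-responder (52.8 to 128) and 38.2 CPM in the median responder (32.6 to 88.3). The Ndufb9 log2 fold change was -0.99 (SE 0.20, adjusted p = 0.00051), and the groups overlapped through responder 5.

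Ndufa4 showed the lowest log2 fold change of the genes counted here under complex I. It lies at chr6:11900292-11907497 on the minus strand of GRCm38 and encodes a small subunit that, despite its name, is known to sit in complex IV. Its level in the 5 controls was 259, 196, 239, 211 and 288 CPM. Non-responders ranged from 79.2 to 301 CPM with a median of 137, stable tumours from 38.7 to 77.6 with a median of 69.5, and responders from 27.2 to 75.8 with a median of 33.96. Every responder and every stable tumour thus lay below every non-responder and control. The log2 fold change was -1.86 against non-responders (SE 0.26, adjusted p = 2.6e-05) and -2.48 against controls (SE 0.27, adjusted p = 1.7e-07). In stable tumours it was -1.24 against non-responders (SE 0.28, adjusted p = 0.0049) and -1.87 against controls (SE 0.29, adjusted p = 1.6e-05). These 4 calls held in DESeq2, limma, the other filters, scalings and covariates, and each left-out tumour. Responder minus non-responder ranged from -2.03 to -1.38 over these settings. They do not include the fit without the responder libraries of low protein-coding share. That fit leaves responder 5 alone, so it cannot decide whether the responder calls of Ndufa4 hold.

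Ndufa4l2, a related protein induced under low oxygen that is known to lower complex I activity, did not follow Ndufa4. Its medians were 6.78 CPM in controls, 5.08 for non-responders, 8.05 for stable tumours and 6.82 for responders. Responders spread from 2.74 to 14.0 CPM and covered the range of the other groups apart from stable tumour 3 (14.6 CPM). None of its 6 comparisons was called, with log2 fold changes from -0.21 to 0.70. All 6 stable tumours lay above all 5 controls (0.61, SE 0.33, adjusted p = 0.14).

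Complex II, succinate dehydrogenase, links the tricarboxylic acid cycle to the respiratory chain. Sdha, its flavoprotein, stood at 283, 244, 272, 312 and 277 CPM in controls. Sdha medians were 216 CPM for non-responders (173 to 328), 215 for stable tumours (207 to 230) and 129 for responders (111 to 230). Stable tumours lay within the non-responder range, and 7 of 8 responders lay below both groups. The Sdha log2 fold change was -0.65 against non-responders (SE 0.14, adjusted p = 0.00085) and -0.59 against stable tumours (SE 0.14, adjusted p = 0.0056).

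The iron-sulfur subunit Sdhb had medians of 126, 86.9, 93.0 and 44.6 CPM in controls, non-responders, stable tumours and responders, with log2 fold changes of -0.85 in responders minus non-responders and -0.04 in stable tumours minus non-responders. The membrane anchors Sdhc and Sdhd differed by -0.79 and -0.72 in responders minus non-responders. In stable tumours minus controls both anchors were called (Sdhc -0.96, adjusted p = 8.0e-05; Sdhd -0.54, adjusted p = 0.042), whereas Sdha (-0.36, adjusted p = 0.066) and Sdhb (-0.54, adjusted p = 0.051) were not. That difference between anchors and catalytic subunits was not tested. Sdhd lost its call with TMM over all annotated genes (log2 fold change -0.52) and when single tumours were left out, among them control 1.

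Complex III, the cytochrome bc1 complex, had the core proteins Uqcrc1 and Uqcrc2 and the Rieske protein Uqcrfs1 at log2 fold changes from -0.91 to -0.79 in responders minus non-responders. Its 5 small subunits ranged from -1.27 (Uqcr11) to -0.67 (Uqcrq), and all 8 genes were called. Uqcr11 stood at 138, 104, 121, 138 and 123 CPM in controls, at a median of 73.1 CPM for non-responders (41.5 to 130), 47.6 for stable tumours (32.5 to 56.8) and 27.2 for responders (19.4 to 57.04). Only non-responder 3 among treated tumours reached the control range. Uqcrh, the hinge protein that contacts cytochrome c1, had medians of 204, 130, 106 and 73.2 CPM in the same order, with a log2 difference of -0.84 (SE 0.18, adjusted p = 0.00069) in responders minus non-responders.

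Complex IV, cytochrome c oxidase, holds pairs of general and tissue-restricted isoforms. The 10 general subunits were all called lower in responders than in non-responders, from -1.35 (Cox7a2) to -0.69 (Cox5a). Cox8a, the general form of the smallest subunit, had medians of 263 CPM in controls, 173 for non-responders, 160 for stable tumours and 63.7 for responders. Responder 5, at 184 CPM, stood above 7 responders between 44.4 and 106. Cox4i1, the general form of subunit IV, had medians of 341, 206, 184 and 108 CPM and a log2 difference, responders minus non-responders, of -0.93 (SE 0.20, adjusted p = 0.00082). Cox7b stood at -1.30, Cox6a1 at -1.21 and Cox6b1 at -1.05 in the same comparison, each called.

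Cox8b, the heart, muscle and brown fat form of that smallest subunit, lies at chr7:140898945-140900446 on the minus strand of GRCm38. It stood at 5.91, 3.36, 4.74, 15.1 and 13.5 CPM in controls. Non-responders 1 and 2 had 5.05 and 3.01 CPM, and the other 4 had 0.374 to 1.23. Stable tumours ranged from 0.400 to 0.811 CPM, and responders from 0 to 0.378, which rests on 0 to 5 counts per library. All responders and all stable tumours lay below all controls, and all responders below all stable tumours. The log2 fold change against controls was -4.93 in responders (SE 0.58, adjusted p = 3.0e-07), -3.70 in stable tumours (SE 0.58, adjusted p = 1.8e-05) and -2.30 in non-responders (SE 0.55, adjusted p = 0.0058). Against non-responders it was -2.63 in responders (SE 0.55, adjusted p = 0.00069), a call that ended once the protein-coding share entered the fit (-2.08).

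Since Cox8b belongs to muscle and brown fat, their markers were read beside it. The summed level of 10 skeletal muscle markers ranged from 87.2 to 1857 CPM in controls, 197 to 1891 for non-responders, 504 to 1437 for stable tumours and 74.0 to 1223 for responders. In controls 1 to 5 the muscle sums were 87.2, 1857, 698, 654 and 1044.5 CPM, beside the Cox8b levels given above in the same order. In non-responders 1 to 6 they were 1891, 1516, 197, 1776, 572 and 848 CPM, beside Cox8b levels of 5.05, 3.01, 0.486, 1.23, 0.374 and 0.442 CPM. The part of muscle in the Cox8b level was not tested. Ucp1, the defining gene of brown fat, was at or below 0.189 CPM in every tumour. Of the 10 muscle markers, 1 was called lower and 0 higher in responders minus non-responders, and 0 were called in responders minus controls.

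The other muscle isoforms were low throughout. Cox7a1 had medians of 2.88 CPM in controls, 1.25 for non-responders, 1.04 for stable tumours and 0.676 for responders, with every control above every treated tumour. Its log2 fold change against controls was -2.17 in responders, -1.59 in stable tumours and -1.23 in non-responders (adjusted p = 4.3e-05, 0.0025 and 0.038). Cox6a2 had medians of 2.03, 2.67, 2.69 and 1.51 CPM, with no comparison against controls called. Cox4i2, a form linked to low oxygen and lung, had medians of 0.853, 1.2001, 1.06 and 0.536 CPM. In responders minus non-responders, Cox7a1 (-0.94, adjusted p = 0.045), Cox6a2 (-0.88, adjusted p = 0.044) and Cox4i2 (-1.08, adjusted p = 0.024) were called. None of these 3 calls held with the share as covariate (-0.24, -0.77 and -0.65), and Cox7a1 turned to 0.02 in limma on log2(RPKM + 1). Each also ended when single tumours were left out, among them non-responder 4. The Cox7a1 call in non-responders minus controls ended without any 1 of the 5 controls.

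Cox6b2, the testis form of subunit VIb, was the 1 member called higher in any comparison. It stood at 0.126, 0.0488, 0, 0.0346 and 0.131 CPM in controls, with medians of 0.247 CPM for non-responders, 0.460 for stable tumours and 0.564 for responders. These levels rest on 0 to 3 counts per library in controls and at most 10 elsewhere. All 6 stable tumours lay above all controls, and 7 of 8 responders did, responder 5 (0.116 CPM) being the exception. The log2 fold change against controls was 2.68 in responders (SE 0.52, adjusted p = 0.00012), 2.64 in stable tumours (SE 0.53, adjusted p = 0.00026) and 1.80 in non-responders (SE 0.53, adjusted p = 0.022). The last call ended without control 4 and in limma on log2(RPKM + 1) and log2(RPKM + 0.1). Its general partner Cox6b1 had medians of 180, 118, 102 and 49.4 CPM in the same order of groups. The summed level of 4 testis markers was at most 0.811 CPM in any tumour.

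Cox7a2l, a subunit-like protein linked to supercomplexes of complexes III and IV, differed in its order from the structural subunits. Its medians were 176 CPM in controls (135 to 204), 139 for non-responders (111 to 221), 177 for stable tumours (156 to 198) and 109 for responders (82.8 to 206). Stable tumours lay within the control range, and the log2 fold change of stable tumours minus controls was 0.03 (SE 0.20, adjusted p = 0.91). In responders minus stable tumours its log2 fold change was -0.60 (SE 0.18, adjusted p = 0.016), and in responders minus non-responders -0.42 (SE 0.18, adjusted p = 0.052). The first of these ended when the share entered the fit (-0.37) and when trends with GC and length were removed (-0.29).

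**Figure D4:**
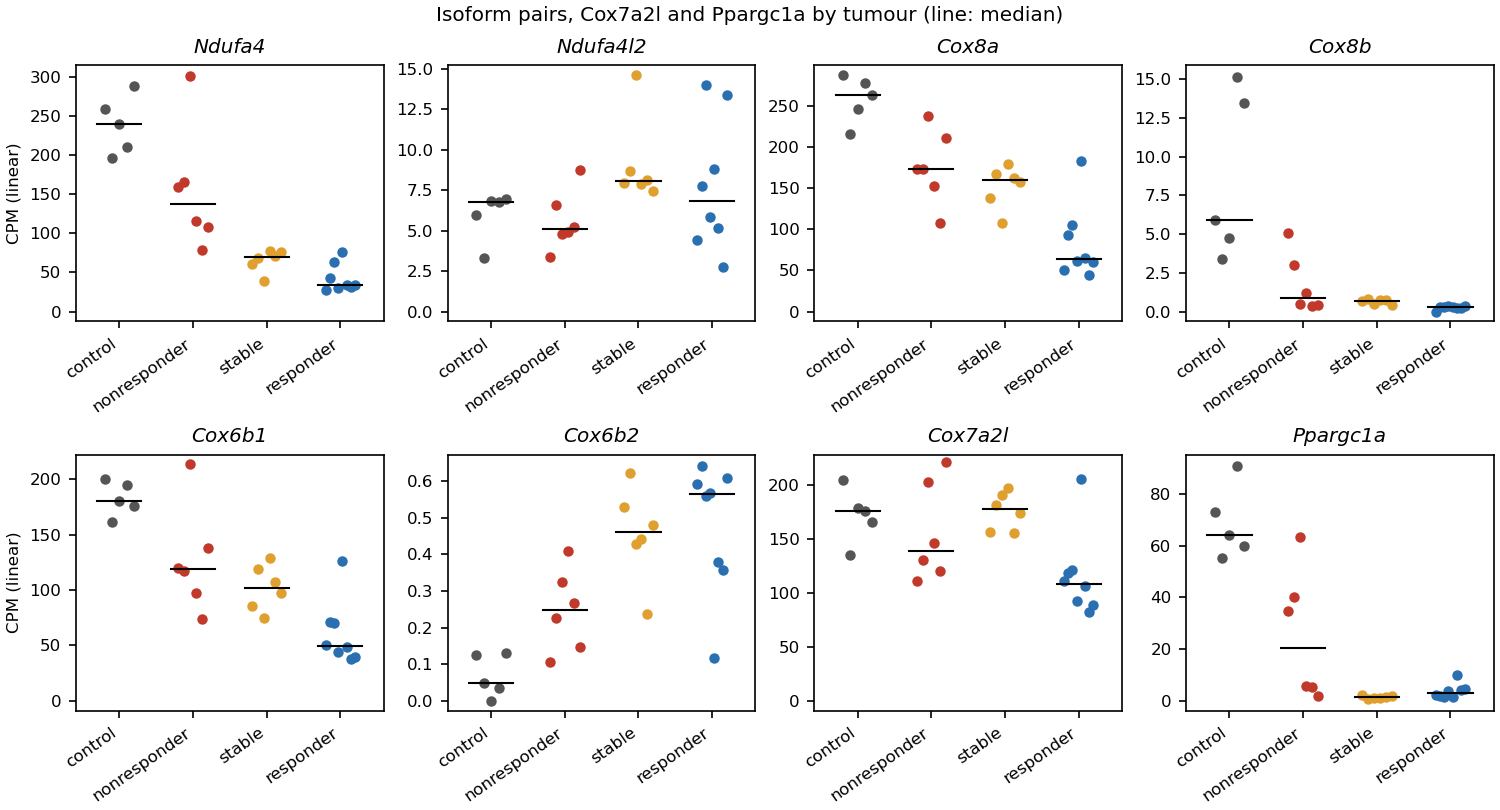
CPM (y axis, linear) of 3 isoform pairs, of Cox7a2l and of the coactivator Ppargc1a in each of 25 tumours by group (x axis), with the median as a line. Ndufa4, Cox8a and Cox6b1 step down across the groups, Ndufa4l2 does not, and Cox6b2 is highest in stable tumours and responders at under 1 CPM.

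Complex V joins the catalytic F1 head to a membrane rotor and a stalk. All 5 tested genes of the head (Atp5a1, Atp5b, Atp5c1, Atp5d and Atp5e) were called lower in responders than in non-responders, from -1.41 (Atp5b) to -0.73 (Atp5d). Atp5b stood at 2529.7, 1861, 1981, 2263 and 2013 CPM in controls, and at medians of 1159.9 CPM for non-responders (756 to 2639), 846 for stable tumours (751 to 872) and 430 for responders (356 to 930). Non-responder 3 was above all controls, and responder 5 above all stable tumours. The Atp5b log2 fold change was -1.41 (SE 0.23, adjusted p = 1.0e-04) in responders minus non-responders and -2.08 (SE 0.24, adjusted p = 2.9e-07) in responders minus controls.

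The rotor's c subunit is made from 3 genes that encode the same mature protein, and all were called lower in responders than in non-responders: Atp5g3 at -1.28, Atp5g1 at -1.06 and Atp5g2 at -0.92. The 4 genes of the peripheral stalk (Atp5f1, Atp5h, Atp5j and Atp5o) ranged from -1.30 (Atp5o) to -0.64 (Atp5h), and 4 small membrane subunits (Atp5j2, Atp5k, Atp5l and Atp5mpl) from -1.34 to -0.72. Atp5s, which carries the family symbol but is known as an assembly-related protein and no structural subunit, had medians of 6.56, 5.42, 5.24 and 5.46 CPM and was not called between outcome groups. It was called lower against controls in responders (-0.31, adjusted p = 0.044) and stable tumours (-0.34, adjusted p = 0.05), and both calls ended without any 1 of the 5 controls. With GC and length trends removed the responder value turned to 0.03.

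Stable tumours were compared with non-responders on the same test. Of 83 members, 5 were called lower and 0 higher, while 10.0% of all tested genes were lower and 8.18% higher. The median log2 fold change was -0.29 over members and -0.02 over all genes. Of the 83 members 79 were below 0, against 7692 of all 14881 tested genes. The members called lower included Ndufa4 (-1.24), Uqcr11 (-0.69), Cox5b (-0.66) and Ndufb2 (-0.64). Ndufa4 was the 1 member with no overlap between the groups, against 3.66% of all genes. The count was 8 with DESeq2, 11 in limma on log2(RPKM + 1) and on log2(RPKM + 0.1), 11 with GC and length trends removed and 9 with the share as covariate. It fell to 1 without non-responder 3, 2 without non-responder 2, stable tumour 1 or stable tumour 3, and 3 without non-responder 1, stable tumour 4 or stable tumour 5. It was 10 without non-responder 5 and 8 without responder 5. How the share of all tested genes called moved in these fits is not given here.

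In responders minus stable tumours, 64 of 83 members were called lower and 0 higher, while 15.8% of all tested genes were lower and 15.2% higher. The median was -0.60 over members and -0.03 over all genes. The calls held 25 of 38 genes in complex I, 4 of 4 in II, 7 of 8 in III, 12 of 16 in IV and 16 of 17 in V. Within complex I, 3 of 7 core subunits were called. Cox7b (-1.01, adjusted p = 0.011) had the lowest called value, and Cox8b (-1.23, adjusted p = 0.096) a lower one that was not called. Cox8b and Cox6a2 had every responder below every stable tumour, against 0.188% of all genes.

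With the share as a covariate, edgeR called 0 members and 0 of all genes in responders minus stable tumours (median over members -0.25). Share and response are confounded here too, so that fit cannot tell them apart. At an unadjusted p under 0.05 there were 0 members and 1347 of all genes. Without the 7 libraries of low share, 0 were called and the median turned to 0.23. With GC and length trends removed, 21 members were lower and 1 higher. Members are short, with a median gene model of 1569 bases against 4344 bases over all tested genes. The count was 41 without responder 1, 37 without responder 4, 40 without responder 6, 39 without responder 7, 36 without responder 8, 36 without stable tumour 2 and 32 without stable tumour 4. For these left-out tumours the share of all tested genes called is not given here.

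The 3 comparisons with controls use the same 5 control tumours, and are given side by side. In responders minus controls, 79 of 83 members were called lower and 1 higher, while 32.4% of all genes were lower and 31.1% higher. In stable tumours minus controls, 72 were lower and 1 higher, while 24.3% of all genes were lower and 22.7% higher. In non-responders minus controls, 19 were lower and 1 higher, while 5.11% of all genes were lower and 11.2% higher. The medians over members were -1.35, -0.81 and -0.50, and over all genes 0.04, -0.04 and -0.02. With TMM over all annotated genes, the median of all genes in responders minus controls was 0.16, a shift over 0.1, and the member median was -1.40.

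Every responder lay below every control for 76 of 83 members, against 18.3% of all genes. The same held for stable tumours in 75 of 83 members, against 21.8%, and for non-responders in 7 of 83, against 2.37%. In stable tumours the 10 uncalled members were Sdha, Sdhb, Uqcrc2, Cox5a, Ndufa11, Atp5e, Cox4i2, Cox6a2, Cox7a2l and Ndufa4l2. Without the 7 responder libraries of low share, the count of calls was 79 for stable tumours minus controls. At an unadjusted p under 0.05 in edgeR, that fit had 80 members and 8825 of all genes for stable tumours. Responder 5 alone was below the lowest control for 76 of 83 members, and the matching share of all genes is not given here.

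In non-responders the 19 genes called lower included Cox8b (-2.30), Cox7a1 (-1.23), Ndufs1 (-0.82), Atp5o (-0.76), Cox5b (-0.76) and Uqcrq (-0.63, adjusted p = 0.0076). Shares of all tested genes called in the fits below are not given here. The total count of calls, 20, moved when single tumours were left out. It was 62 without non-responder 3, 47 without responder 5, 12 without non-responder 1, 11 without control 5, 9 without non-responder 6, 6 without control 1 or non-responder 4, 5 without non-responder 5 and 4 without control 4. It was 13 with TMM over all annotated genes, 31 in limma on log2(RPKM + 0.1) and 45 without the 7 libraries of low share.

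The genes around the complexes were read from lists. Of 16 genes of the tricarboxylic acid cycle and pyruvate dehydrogenase, 15 were called lower for responders than for non-responders (median -0.74) and all 16 were called lower for stable tumours than in controls (median -0.79). Suclg2, a succinyl-CoA ligase subunit, was lowest at -1.27, and Dlst was not called at -0.08. Of 47 tested complex assembly factors, 19 were called lower and 1 higher in responders minus non-responders (median -0.30), from Sdhaf4 (-1.06) to Ttc19 (0.31). Of 15 electron carrier and coenzyme Q genes, 8 were lower and 2 higher (median -0.46). The higher ones were Coq8b (0.83) and Pdss2 (0.73), and the lowest was Cycs, cytochrome c itself, at -1.31. Over all tested genes 25.7% were lower and 22.2% higher in responders minus non-responders, and 24.3% were lower in stable tumours minus controls.

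The 13 mitochondrially encoded subunits had 3 genes called lower and 0 higher in responders minus non-responders (median -0.34), 0 called in responders minus stable tumours (median 0.03), 6 lower in responders minus controls (median -0.74) and 4 lower in stable tumours minus controls (median -0.77). In the last of these, mt-Co3, a core subunit of complex IV, had -1.97, and mt-Co1, the catalytic core, had -0.25 and was not called. In responders minus stable tumours, 64 of 83 nuclear-encoded and 0 of 13 mitochondrially encoded subunits were called lower. That difference was not tested. The share of all tested genes called lower was 25.7% in responders minus non-responders, 15.8% in responders minus stable tumours, 32.4% in responders minus controls and 24.3% in stable tumours minus controls.

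Among regulators, Ppargc1a stood at 72.9, 55.1, 64.2, 90.7 and 59.9 CPM in controls. Non-responders 1, 2 and 3 had 34.8, 40.0 and 63.4 CPM, and non-responders 4, 5 and 6 had 5.58, 5.45 and 2.01. Stable tumours ranged from 0.873 to 2.20 CPM and responders from 1.45 to 9.85. Non-responders thus split into 3 tumours near the controls and 3 near the other groups. The log2 fold change was -2.77 in responders minus non-responders (SE 0.57, adjusted p = 0.00057), -4.14 in stable tumours minus non-responders (SE 0.67, adjusted p = 0.0011) and 1.36 in responders minus stable tumours (SE 0.63, adjusted p = 0.099). The overall subunit scores of non-responders 1 to 6 were 5.79, 5.84, 6.37, 5.55, 5.21 and 5.90, in the order of the Ppargc1a levels above. The part of Ppargc1a in the subunit levels was not tested.

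Its relatives Ppargc1b (0.90) and Pprc1 (0.86) were called higher in responders minus non-responders, as was Mterf1a (0.50). Myc (-0.80), Tfb1m (-0.53), Tfam (-0.37), Tfb2m (-0.37) and Gabpa (-0.30) were called lower. Nrf1 (-0.04) and Yy1 (-0.10) were not called. Of the 14 tested regulators, 3 were higher and 6 lower in that comparison, against 22.2% higher and 25.7% lower over all tested genes.

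Markers of the cells in the tumour moved with the groups too. All 8 melanocyte markers were called lower for responders and for stable tumours than for non-responders, against 25.7% and 10.0% of all tested genes. Their summed level ranged from 14141 to 22027 CPM in controls, 932 to 17679 for non-responders, 291 to 648 for stable tumours and 391.5 to 970 for responders, with no marker at 0 in any group. In non-responders 1, 2 and 3 the sum was 4798, 9564 and 17679 CPM. All 7 leukocyte markers were called higher in responders and in stable tumours than in controls, against 31.1% and 22.7% of all tested genes. Their sum ranged from 432 to 894 CPM in controls, 836 to 9390 for non-responders, 6656 to 10499 for stable tumours and 2921 to 11715 for responders. In responders minus stable tumours, 0 of 8 melanocyte and 0 of 7 leukocyte markers were called. In that comparison 2 of 6 fibroblast, 1 of 6 endothelial and mural and 1 of 10 skeletal muscle markers were called lower. Over all tested genes, 15.8% were lower and 15.2% higher. The sum of 6 fibroblast markers ranged from 4156 to 7929 CPM in controls, 7551 to 17293 for non-responders, 9561 to 19593 for stable tumours and 9065 to 20964 for responders. The sum of 6 endothelial and mural markers ranged from 300.7 to 401 CPM, 234 to 461, 135 to 236 and 89.4 to 203 in the same order, with 5 of 6 called lower in responders minus non-responders. The sum of 6 adipocyte markers ranged from 1.68 to 57.1 CPM over all tumours, with 0 of 5 tested called between outcome groups. The part of cell makeup in the subunit levels was not tested.

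The promoters of members were searched for motifs of factors known to control such genes, because the members were lower together. RefSeq promoters of GRCm38.p6, from 250 bases before to 50 after the start, were found for 67 of 89 member symbols (72 promoters). The NRF1 motif (GCGCANGCG) was found on either strand in 29.2% of them and in 6.25% of all 32851 promoters. The GABP motif (CCGGAAG) was found in 22.2% against 8.86%, and the YY1 motif (AANATGGC) in 22.2% against 6.05%. Within 150 bases before the start the YY1 shares were 4.17% and 2.23%. In the full windows the ERR motif (TCAAGGTCA) was found in 2 of 72 member promoters (2.78%, against 0.423% of all). At least 1 of the 4 was found in 59.7% of member promoters and 19.0% of all. A match describes letters, not binding. The windows below run from 250 to 31 bases before the start, 5′ to 3′ on the gene's strand, with motif matches in capitals. Cox6a1 shows NRF1 matches, where a pair on opposite strands overlaps; Uqcr11 shows a GABP match and Atp5g3 an ERR match; Cox8b, the member with the lowest fold change, holds none of the 4 in this window.
Cox6a1: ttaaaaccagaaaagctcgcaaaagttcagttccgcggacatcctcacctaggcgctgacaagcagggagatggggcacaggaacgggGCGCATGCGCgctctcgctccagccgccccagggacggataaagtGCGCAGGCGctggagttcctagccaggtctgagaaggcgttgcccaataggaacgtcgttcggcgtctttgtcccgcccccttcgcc
Uqcr11: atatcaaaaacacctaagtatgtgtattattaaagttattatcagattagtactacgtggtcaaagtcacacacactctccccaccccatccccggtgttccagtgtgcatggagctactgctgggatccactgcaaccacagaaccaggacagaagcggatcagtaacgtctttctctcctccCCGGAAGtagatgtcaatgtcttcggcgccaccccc
Atp5g3: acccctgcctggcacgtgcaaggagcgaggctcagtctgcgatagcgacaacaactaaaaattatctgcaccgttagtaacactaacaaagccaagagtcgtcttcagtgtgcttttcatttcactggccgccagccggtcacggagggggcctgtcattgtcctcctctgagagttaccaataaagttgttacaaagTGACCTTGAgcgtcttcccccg
Cox8b: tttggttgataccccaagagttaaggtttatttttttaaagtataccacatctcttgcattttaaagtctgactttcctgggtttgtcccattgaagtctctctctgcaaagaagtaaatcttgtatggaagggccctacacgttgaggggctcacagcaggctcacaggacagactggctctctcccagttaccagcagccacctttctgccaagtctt

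All 4 windows lie on the minus strand: Cox6a1 at chr5:115348989-115349208, Uqcr11 at chr10:80406852-80407071, Atp5g3 at chr2:73911357-73911576 and Cox8b at chr7:140900477-140900696. The Cox6a1 window overlaps an annotated exon of the lincRNA Gm42903 on the opposite strand (bases 115349130 to 115349160). The other 3 overlap no annotated exon. The genes carrying these windows had log2 fold changes of -1.21 (Cox6a1), -1.27 (Uqcr11), -1.28 (Atp5g3) and -2.63 (Cox8b) in responders minus non-responders.

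Some rows need care. Ndufb4 and the processed pseudogene Ndufb4c had nearly equal medians, 29.7 and 30.0 CPM in controls and 11.1 and 9.36 in responders, and reads may have been split between them, so the Ndufb4 value (-0.72 in responders minus non-responders) is uncertain. The row Ndufb1-ps, left out by the rule, had medians of 57.7 CPM in controls, 43.2 for non-responders, 44.8 for stable tumours and 20.3 for responders. The pseudogenes Ndufa11b, Ndufs6b and Cox6c2 had 4 to 7 counts over the 25 tumours.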

How the data were processed

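Each of 25 tumours gave 1 library, made with a stranded total RNA kit per the labels' protocols, whereas their molecule field reads polyA RNA. Per the submitters' processing notes, bcl2fastq 2.17, Trimmomatic, STAR 2.5.1 and RSEM 1.2.22 were used with mm10. The authors deposited expected counts per gene (5.65% of values not whole), which were rounded here, and RPKM values for 19522 symbols, whose denominator is not given in the sources used here. All 55450 identifiers were in GENCODE M21 (GRCm38).

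Protein-coding genes passing filterByExpr were fitted in edgeR 4.0.16 (R 4.3.3) with TMM and 4 group means, with Benjamini-Hochberg adjustment over 14881 genes and no covariate. Scores are mean log2 CPM with a prior count of 2. RPKM entered limma 3.58.1 as log2(RPKM + 1) or log2(RPKM + 0.1), so fold changes of low genes are understated there. Whether replicates were separate beyond their tumours is not stated, and p-values measure the spread between these tumours. Pairs of replicates differed by a chi-square of at least 8.99 per gene, so none was a duplicate library. The fit was tested on simulated counts with 200 of 14881 genes changed in responders. In responders minus non-responders it found 92% of 4-fold and 68.7% of 2-fold changes, and 6.4% of its calls were false. Far more genes were called in the real data, and no shift in library composition was simulated. The simulation therefore does not cover that setting.

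Named members were all of complex II, isoforms, the 2 highest by RPKM per complex, the extremes in responders or stable tumours minus non-responders with a mean of at least 1 CPM, and calls against the common direction; other names were chosen after their values were seen. Members and lists were chosen with earlier results of these data known. Subunit roles were grouped after the fits. Alternatives were DESeq2 1.42.0, other scaling, filters, covariates and each tumour left out. Genes of the tested lists number 14 of 16 for regulators and 47 of 49 for assembly factors. The values of 1 member are not reported here, and it stays in the counts.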

Additional observations from a re-analysis of the deposited data

Results flagged for a closer look

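In groups of 5 to 8 tumours, 31 of 140 sets of values had a highest or lowest tumour far from the rest. The sets share the same tumours and are not independent, so this count was not compared with chance. Of the 31, 20 fell on responder 5, which stood above the other responders, and 5 on non-responder 3. The complex II score of responder 5 was 7.00. Its complex V levels were 635 CPM for Atp5a1, 930 for Atp5b, 67.0 for Atp5g1 and 107 for Atp5g3. In complex IV it had 222 CPM of Cox4i1, 1.16 of Cox4i2, 126 of Cox6a1, 126 of Cox6b1, 90.2 of Cox7a2, 206 of Cox7a2l, 86.6 of Cox7b and 184 of Cox8a. In the other complexes it had 88.3 CPM of Ndufb9, 230.03 of Sdha, 100.001 of Sdhb, 104 of Sdhd, 57.04 of Uqcr11, 105 of Uqcrc2 and 126 of Uqcrh.

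Non-responder 3 stood above the other non-responders with 1166 CPM of Atp5a1, 2639 of Atp5b, 192 of Cox7a2, 328 of Sdha and 256 of Uqcrh. Non-responder 2 was high for Atp5s at 7.28 CPM. Stable tumour 4 was high for Cox6a2 at 4.30 CPM, and stable tumour 3 for Ndufa4l2 at 14.6 CPM. Control 2 was low for Ndufa4l2 at 3.32 CPM. Responder 1, the library with the lowest protein-coding share, had 0 counts of Cox7a1 and of Cox8b.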

How the results depend on the processing

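The counts of members called in responders minus non-responders, responders minus controls and stable tumours minus controls stayed within 1.5 times their value under DESeq2, other scaling, other filters, limma and every left-out tumour. Once the protein-coding share entered the fit, responders minus non-responders had 14 calls (median -0.55) and stable tumours minus non-responders 9. Responders minus stable tumours had 0 (median -0.25), and the median of responders minus controls was -1.02. Share and response are confounded, so that fit cannot tell them apart. Without the 7 responder libraries of low share, a choice made after seeing the data, the counts were 0 (median -0.039), 9, 0 (median 0.23), 6 (median -0.56) and, for non-responders minus controls, 45. Fewer samples enter that fit. Stable tumours minus non-responders gave 8 calls with DESeq2 and 11 with GC and length trends removed, 11 in limma on log2(RPKM + 0.1) and 11 on log2(RPKM + 1). Responders minus stable tumours gave 22 with GC and length trends removed. Non-responders minus controls gave 13 with TMM over all annotated genes and 31 in limma on log2(RPKM + 0.1). With 1 tumour left out, the counts ranged from 1 to 10 in stable tumours minus non-responders, from 32 to 73 in responders minus stable tumours and from 4 to 62 in non-responders minus controls. Matching shares of all tested genes are not given for these fits. Atp5s turned to 0.027 in responders minus controls with GC and length trends removed, and Cox7a1 to 0.028 and 0.016 in responders minus non-responders in limma on log2(RPKM + 0.1) and log2(RPKM + 1). Apart from those settings whose construction shows it, the cause was not tested. With promoters cut to 150 bases before the start, the NRF1 motif was in 18.1% of member promoters and 4.26% of all, and the YY1 motif in 4.17% and 2.23%. No paired analysis was possible because the labels give no replicate numbers shared between groups. Depth limits Cox6b2, Cox8b, Cox7a1, Cox6a2 and Cox4i2, which have under 10 counts in some libraries.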
